A study of Mus musculus with 7 samples.

Results

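The mitochondrial genome of the mouse encodes 37 genes, and all 37 were rows of the deposited count table, which listed 38293 genes. They were taken as the rows whose gene name begins with mt-. There were 13 protein-coding genes (mRNAs), 2 rRNA genes and 22 tRNA genes. RNA had been sequenced from scrapings of ileum, the far end of the small intestine, of male C57BL/6NRJ mice, 8 weeks old at the start. Before the experiment all animals spent 1 week on a high fat AIN93G control diet. They then ate for 2 weeks either that diet with its usual cystine (normal cys, 4 libraries, X17SI4, X32SI4, SI9 and X1SI4) or a diet in which the added cystine was replaced by alanine (low cys, 3 libraries, X23SI4, X26SI4 and X10SI4). Epithelium was scraped off together with the connective tissue beneath it, leaving muscle behind, so each library is a mixture of cell types, and fewer cells of a type cannot be told apart from less RNA per cell.

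Mitochondrial DNA is a small circle present in many copies per cell. Both of its strands are transcribed into long precursors that run through many genes, and the tRNAs, which lie between most of the mRNAs and rRNAs, are cut out at their ends to release the RNAs on either side. The 13 proteins are all subunits of oxidative phosphorylation, namely of complex I (the mt-Nd genes), complex III (mt-Cytb), complex IV (mt-Co1, mt-Co2 and mt-Co3) and ATP synthase (mt-Atp6 and mt-Atp8). The polymerase, its factors, the processing enzymes and the proteins of the mitochondrial ribosome are encoded in the nucleus. Absorbing enterocytes of the ileum are rich in mitochondria. Of the 37 genes, 28 were annotated on the plus strand and 9 on the minus strand, and mt-Nd6 was the only protein-coding gene among the latter.

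Most of the results turn on a few tRNA genes, whose sequences are shown first. Positions refer to the mitochondrial chromosome (MT) of GRCm38, the sequence is that of the GENCODE M21 transcripts, and the strand is that of the gene. Capitals mark the anticodon, the 3 bases that pair with the codon. The gene for leucine tRNA mt-Tl1 (positions 2676 to 2750, plus strand) had the smallest p-value of all mitochondrial genes. The gene for cysteine tRNA mt-Tc (positions 5192 to 5257, minus strand) is shown because it carries the amino acid of the diet. Aspartate tRNA mt-Td (positions 6942 to 7011, plus strand) varied most between libraries. Threonine tRNA mt-Tt (positions 15289 to 15355, plus strand) was, beside mt-Tl1, the only other mitochondrial gene whose diet groups did not overlap. Among the 14869 genes with enough counts to be tested, 6.83% did not overlap, and mt-Tt was not one of those tested.
mt-Tl1: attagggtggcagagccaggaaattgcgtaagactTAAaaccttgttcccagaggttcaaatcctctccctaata
mt-Tc: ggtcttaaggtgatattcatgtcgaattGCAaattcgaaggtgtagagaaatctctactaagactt
mt-Td: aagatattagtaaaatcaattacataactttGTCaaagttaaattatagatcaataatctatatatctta
mt-Tt: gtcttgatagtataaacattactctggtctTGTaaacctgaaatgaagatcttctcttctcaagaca

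mt-Tl1 is packed between the large rRNA gene mt-Rnr2 and the complex I gene mt-Nd1 with 0 bases on either side. The stretch from 2651 to 2775 on the plus strand is given with the tRNA in capitals, after the last 25 bases of mt-Rnr2 and before the first 25 bases of mt-Nd1, since a read of 50 bases that crosses either border touches 2 genes.
mt-Tl1 with flanks: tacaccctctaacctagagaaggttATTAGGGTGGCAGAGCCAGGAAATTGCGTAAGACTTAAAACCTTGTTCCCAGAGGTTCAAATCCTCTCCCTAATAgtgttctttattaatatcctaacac

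The 7 libraries held between 14888760 and 22412703 counts, and the 2 smallest were low cys libraries. Of 11 marker lists, 2 did not overlap between the diets, namely 6 stroma genes (summed level 4.11 to 8.93 CPM in normal cys, 11.8 to 18.6 CPM in low cys) and 5 B and plasma cell genes (36.2 to 114.7 CPM and 150.5 to 216 CPM). Taken singly, 6.83% of all genes tested did not overlap. CPM is counts per 1000000 of the TMM-scaled library size. The 10 enterocyte genes summed to 42859, 46147, 65019 and 63490 CPM in the normal cys libraries X17SI4, X32SI4, SI9 and X1SI4. In the low cys libraries X23SI4, X26SI4 and X10SI4 they summed to 24486, 41911 and 42988 CPM. SI9 was highest, with X1SI4 close to it, and X23SI4 was lowest of all libraries. No marker found was at 0 in every library. The part of these shifts in the values below was not tested.

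Mitochondrial genes took a large and variable part of the counts, and this part did not separate the diets. All 37 genes together held 6.24%, 7.11%, 10.98% and 6.77% of all counts in the normal cys libraries X17SI4, X32SI4, SI9 and X1SI4. In the low cys libraries X23SI4, X26SI4 and X10SI4 they held 6.08%, 8.43% and 7.73%. SI9 stood above all other libraries and X23SI4 was the lowest, while the 5 libraries between them, from 6.24% to 8.43%, came from both diets. The means were 7.78% ± 2.17 (SD, n = 4) and 7.42% ± 1.21 (SD, n = 3), a difference of -0.36 percentage points (p = 0.857, two-sided exact permutation test with 35 splits). Without SI9 the difference was 0.71 and without X23SI4 0.307 percentage points, both in the opposite direction. As a share of the TMM-scaled library size, on which CPM rests, the difference was -1.15 percentage points for all 37 genes (exact permutation test, p = 0.686) and -1.09 for the mRNAs (p = 0.714).

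Messenger RNAs made up nearly all of these counts. The 13 protein-coding genes held between 6.03% and 10.8% of all counts in normal cys and between 5.95% and 8.27% in low cys (7.59% ± 2.19 (SD, n = 4) and 7.28% ± 1.20 (SD, n = 3), exact permutation test, p = 0.886). The 2 rRNA genes, which code for the RNAs of the small and the large subunit of the mitochondrial ribosome, held 0.212%, 0.134%, 0.158% and 0.229% in the normal cys libraries and 0.132%, 0.161% and 0.117% in the low cys libraries. Both of the highest values belonged to normal cys (X1SI4 and X17SI4), but the groups overlapped (0.183% ± 0.0446 (SD, n = 4) against 0.136% ± 0.0224 (SD, n = 3), exact permutation test, p = 0.229). Reads of rRNA had been removed by the authors before alignment, so this is what was left after that step. The 22 tRNA genes held between 157 and 782 counts per library, or 0.000985% to 0.0037% of all counts (exact permutation test, p = 0.886), in libraries made by poly(A) selection.

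**Figure D1:**
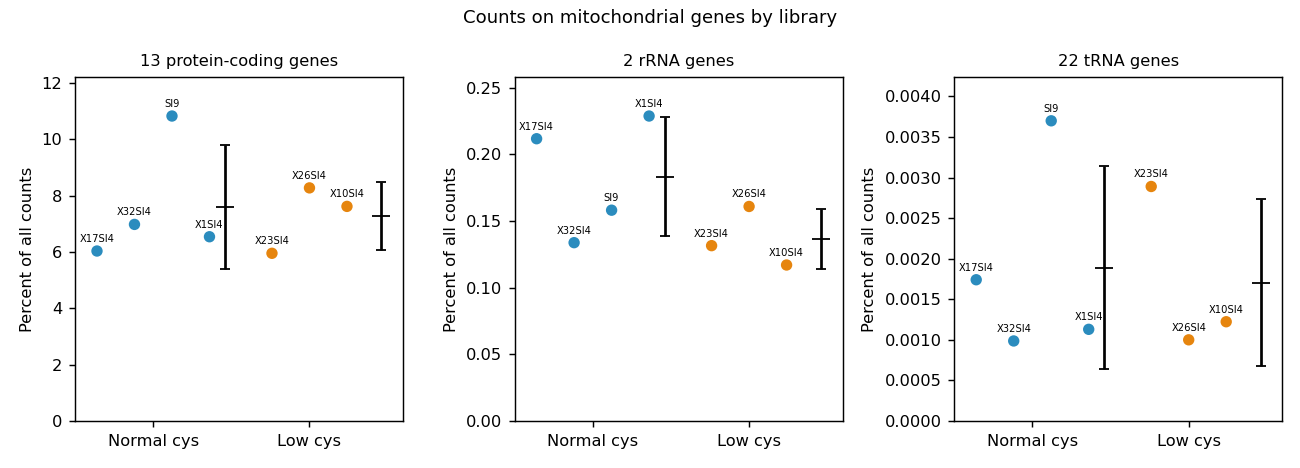
Percent of all counts on the 13 protein-coding, 2 rRNA and 22 tRNA genes of the mitochondrial genome in each library (points, with library names), with the mean and SD of each diet group as black bars, each panel with its own axis from 0. SI9 is highest for mRNA (10.8%) and tRNA (0.0037%), whereas X1SI4 is highest for rRNA (0.229%), and the groups overlap in every panel.

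Levels of the mRNAs were compared between genes as counts per kilobase of gene per 1000000 counts of the library. The libraries were poly(A)-selected, and whether that step captured all mRNAs alike was not tested. mt-Co1, which encodes the catalytic subunit of complex IV, was highest, with a median of 16291 and a range of 12816 to 23858 over the 7 libraries. It was also the gene with the most counts of the whole table in 6 of 7 libraries and ranked 2 in X23SI4, with 1.98% to 3.69% of all counts, and between 6 and 8 of the 20 highest genes of a library were mitochondrial. mt-Co2 (median 12655), mt-Atp6 (10224) and mt-Co3 (9707) came next, followed by mt-Cytb (6208) and mt-Atp8 (5633). The complex I genes were lower, with medians of 3546 for mt-Nd1, 3360 for mt-Nd4, 2366 for mt-Nd4l, 1670 for mt-Nd2, 1641 for mt-Nd3 and 1407 for mt-Nd5.

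mt-Nd6, the complex I gene on the minus strand, was by far the lowest mRNA, with a median of 23.9 and a range of 13.3 to 34.7 on the same scale. Neighbours in this order mostly overlapped in range, and SI9 had the highest level of all 13 genes. Ranges did not overlap for only 2 pairs of neighbours, mt-Co3 above mt-Cytb and mt-Nd5 above mt-Nd6. Within libraries the order was steadier. mt-Co1 was above mt-Co2, mt-Co3 above mt-Cytb, mt-Nd4 above mt-Nd4l, mt-Nd4l above mt-Nd2 and mt-Nd5 above mt-Nd6 in 7 of 7 libraries, whereas mt-Cytb was above mt-Atp8 in only 1 of 7 although its median was higher.

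**Figure D2:**
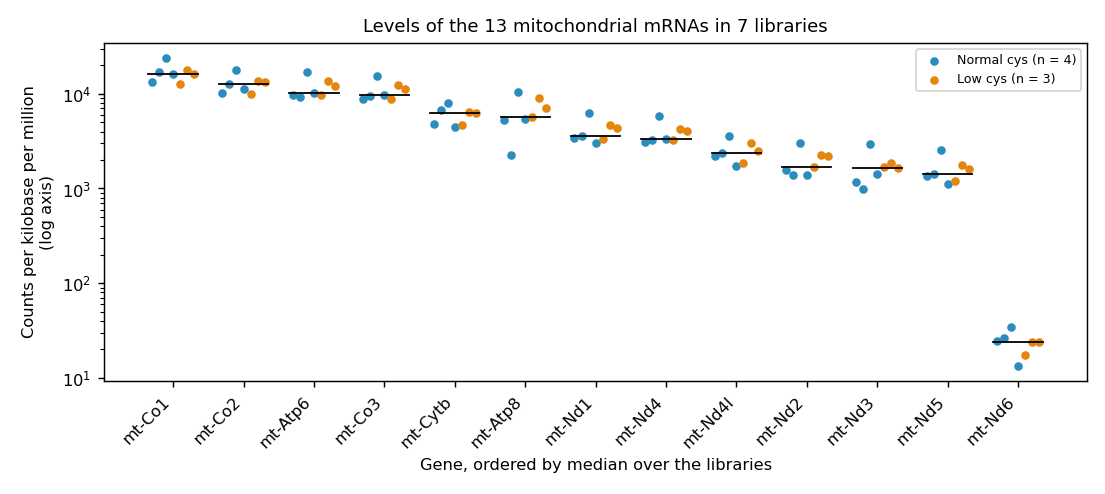
Counts per kilobase per 1000000 counts (log axis) of the 13 mitochondrial mRNAs, with 1 point per library coloured by diet and the median over the 7 libraries as a black line. Levels fall from mt-Co1 (median 16291) to mt-Nd5 (1407) and then drop to mt-Nd6 (23.9), and the diets overlap for every gene.

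Several of these counts cannot be assigned to the mitochondrial genome with certainty, since copies of mitochondrial DNA lie in nuclear chromosomes. The percentage of 50-base stretches (the read length) of a gene that also occur in the transcript of another gene was 100% for mt-Co2, 99.9% for mt-Co3, 99.5% for mt-Atp6, 98.8% for mt-Nd4l, 98.0% for mt-Nd3, 62.2% for mt-Nd4 and 51.1% for mt-Co1. For mt-Nd2 and mt-Nd5 it was 8.19% and 7.61%, and for mt-Rnr2 1.04%. mt-Nd1, mt-Cytb, mt-Atp8, mt-Nd6, mt-Rnr1 and all 22 tRNA genes shared none.

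Counts were also assigned to the copies, and whether those reads came from the copies or from mitochondrial RNA was not tested. Of 15 other genes that share such a stretch, 8 were in the table, and the other 7 are not analysed here. Gm10222, a pseudogene copy of mt-Nd4l on chromosome 1, had 19758, 23658, 36730 and 20038 counts in normal cys and 19522, 22723 and 19168 in low cys. That was 1.52 to 1.74 counts per count of mt-Nd4l, so the copy held more counts than the gene in every library, and mt-Nd4l is therefore uncertain. Gm13340, a copy of part of mt-Co1 on chromosome 2, had 7.21% to 8.14% as many counts as mt-Co1. Together the 8 copies held 0.303% to 0.556% of all counts, highest in SI9. Added to the mitochondrial genes they gave a share of 6.55% to 11.5% in normal cys and 6.39% to 8.88% in low cys (difference -0.367 percentage points, exact permutation test, p = 0.857), a comparison added after the copies had been seen.

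The tRNA genes had few counts, and 8 of the 22 (mt-Tf, mt-Tv, mt-Tn, mt-Tk, mt-Tg, mt-Th, mt-Ts2 and mt-Tl2) had 0 counts in all 7 libraries. A count of 0 allows up to 3 counts in a library, which is 0.134 to 0.201 per 1000000 counts, and covers counting error only. The libraries were poly(A)-selected, and how much of the finished tRNAs they capture was not tested. The cysteine tRNA mt-Tc had 1 count in SI9 and 0 in the 6 other libraries, so that a diet difference was not detectable from these counts. mt-Tq, mt-Ta, mt-Ty, mt-Tr, mt-Te, mt-Tt and mt-Tp also had counts but no more than 8 in any library. Only 6 tRNA genes (mt-Tl1, mt-Ti, mt-Tm, mt-Tw, mt-Ts1 and mt-Td) passed edgeR's filter on low counts.

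The 13 mRNAs hold 3800 codons, of which 28 code for cysteine (TGT or TGC) and 144 are the TTA and TTG codons of leucine that mt-Tl1 reads. By number, cysteine codons were highest in mt-Nd5 (6, or 0.987% of its codons), and by share in mt-Nd4l (3, or 3.03%) and mt-Nd6 (4, or 2.31%), while mt-Atp6 and mt-Atp8 had 0. The codons of mt-Tl1 were highest in mt-Nd6 (23, or 13.3%) and mt-Nd1 (20, or 6.27%).

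Differences between the diets were tested with edgeR over all 14869 genes that passed the filter, among them 21 of the 37 mitochondrial genes (13 mRNAs, 2 rRNAs and 6 tRNAs). The other 16, all tRNA genes, were not tested. An unadjusted p-value under 0.05 was found for 4 of the 21 (5.49% of all genes tested), all lower in low cys (2.83% of all genes tested) and 0 higher (2.66%). They were the tRNA genes mt-Tl1 and mt-Tw and both rRNA genes, whose counts are what the removal of rRNA reads left. After Benjamini-Hochberg adjustment over all genes, 0 of the 21 were under 0.05 in edgeR (adjusted p = 0.794 for each of the 4). In DESeq2, mt-Tl1 was the only mitochondrial gene under 0.05 (0.0928% of the genes with an adjusted p, 16 of 17238), among 22 mitochondrial genes with an adjusted p. Over the 21 genes the median log2 fold change was -0.20, with 19 below 0 and 2 above, beside a median of 0.01 over all genes tested (7262 below and 7607 above 0).

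**Figure D3:**
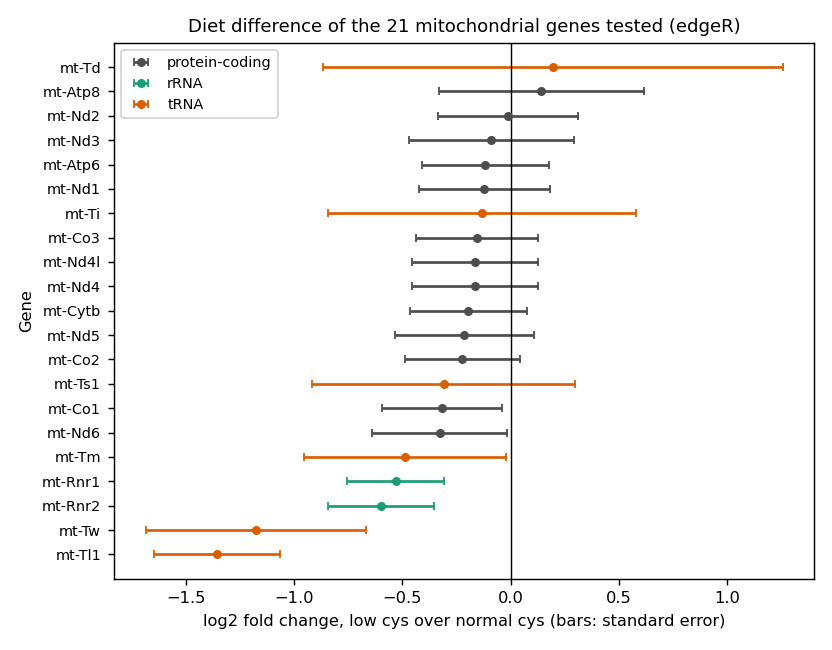
Log2 fold change of low cys over normal cys for the 21 mitochondrial genes tested, from edgeR, with the standard error as a bar and the gene class as colour. mt-Tl1 (-1.36), mt-Tw (-1.18), mt-Rnr2 (-0.60) and mt-Rnr1 (-0.53) lie furthest below 0, while the mRNAs lie between -0.33 and 0.14.

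mt-Tl1, which delivers leucine for the TTA and TTG codons, was the mitochondrial gene with the largest difference. Its level was 5.49, 5.22, 6.89 and 3.34 CPM in the normal cys libraries X17SI4, X32SI4, SI9 and X1SI4, from 105, 115, 131 and 70 counts. In the low cys libraries X23SI4, X26SI4 and X10SI4 it was 1.88, 1.94 and 2.32 CPM, from 46, 31 and 36 counts. The libraries were poly(A)-selected, and whether these reads came from the finished tRNA or from uncut precursors was not tested. Every low cys library lay below every normal cys library, which was seen for 1 of the 21 genes tested (6.83% of all genes tested did not overlap, in either direction). edgeR estimated a log2 fold change of -1.36 ± 0.292 (standard error) with an unadjusted p of 0.00118 and an adjusted p of 0.794, and DESeq2 gave an adjusted p of 0.0285. The exact permutation test on CPM gave p = 0.0571. Leaving out each library in turn, the log2 fold change stayed between -1.52 and -1.20 with an unadjusted p under 0.05 each time.

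The genes that border mt-Tl1 were compared in the same way. mt-Rnr2, upstream, had 1305, 753, 1080 and 1478 CPM in normal cys and 693, 938 and 654 CPM in low cys. X26SI4 was above X32SI4, so the groups overlapped, and the log2 fold change was -0.60 (standard error 0.246, edgeR adjusted p = 0.794, unadjusted p = 0.0376). mt-Nd1, downstream, had 3342, 3300, 6632 and 3108 CPM in normal cys and 2870, 4436 and 3985 CPM in low cys. Apart from SI9, the highest mt-Nd1 values were those of 2 low cys libraries, and the log2 fold change was -0.12 (standard error 0.303, edgeR adjusted p = 0.918). It was 0.21 without SI9 and 0.05 without X23SI4.

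Ratios within a library do not depend on how libraries are scaled. Per 1000 counts of mt-Nd1 there were 1.64, 1.58, 1.04 and 1.08 counts of mt-Tl1 in the normal cys libraries and 0.654, 0.437 and 0.582 in the low cys libraries. The groups did not overlap, and the mean log2 ratio differed by -1.25 (two-sided exact permutation test, p = 0.0286, the smallest the 35 splits can give). Per 1000 counts of mt-Rnr2 there were 4.20, 6.94, 6.38 and 2.26 counts of mt-Tl1 in normal cys and 2.71, 2.07 and 3.55 in low cys. Here X1SI4 lay within the low cys range, and the difference of -0.74 in log2 ratio did not pass the test (p = 0.2, exact permutation test). The counts of mt-Rnr2 are those left after the removal of rRNA reads. Of 10 ratios compared, none adjusted for the number of tests, mt-Tl1 to mt-Nd1 was the only one with p under 0.05. mt-Tl1 was known to be low from earlier results of these data when these ratios were chosen, so they are not independent evidence.

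**Figure D4:**
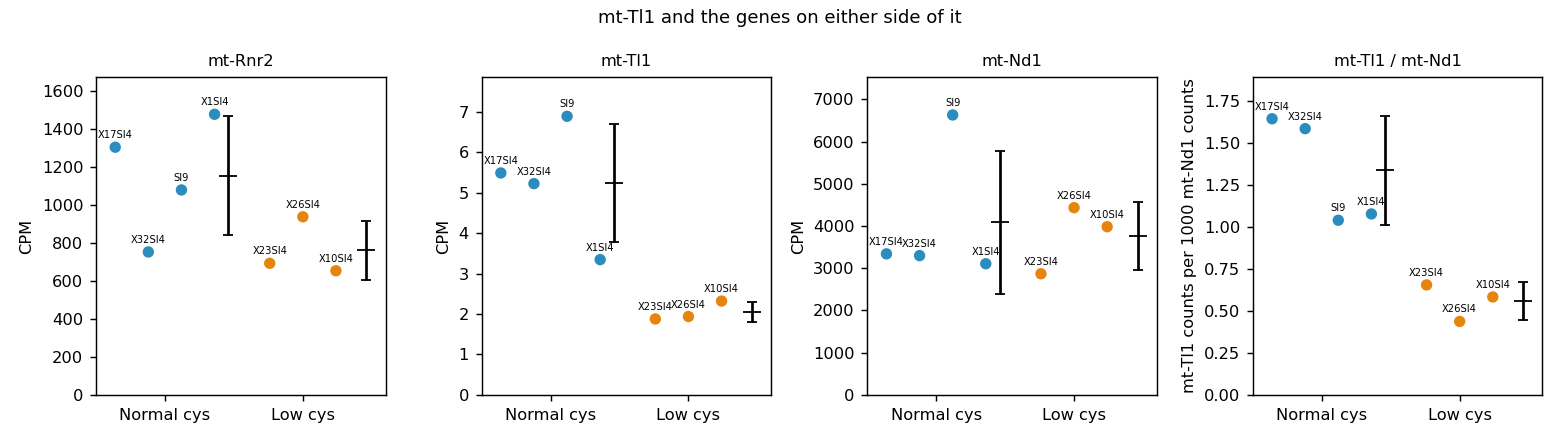
CPM of mt-Rnr2, mt-Tl1 and mt-Nd1 and the counts of mt-Tl1 per 1000 counts of mt-Nd1 in each library (points), with the mean and SD of each diet group as black bars and axes from 0. Low cys libraries lie below all normal cys libraries for mt-Tl1 (1.88 to 2.32 against 3.34 to 6.89 CPM) and for the ratio, and overlap with them for mt-Rnr2 and mt-Nd1.

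mt-Rnr1, the small subunit rRNA, had 876, 548, 678 and 971 CPM in normal cys and 484, 641 and 469 CPM in low cys (log2 fold change -0.53, standard error 0.224, edgeR adjusted p = 0.794, unadjusted p = 0.0412). It ran in parallel with mt-Rnr2 across the libraries. Both are counts left after the removal of rRNA reads, and whether that step worked alike in all libraries was not tested. Counts of mt-Rnr2 were between 138% and 159% of those of mt-Rnr1 in every library, and the log2 ratio differed between the diets by -0.06 (exact permutation test, p = 0.286). Relative to the mRNAs, rRNA counts were 3.51%, 1.92%, 1.46% and 3.50% in normal cys and 2.21%, 1.95% and 1.54% in low cys. X17SI4 and X1SI4 were high and SI9 was the lowest, so that the spread within normal cys exceeded the difference between the diets (-0.37 in log2 ratio, exact permutation test, p = 0.4).

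Without X1SI4 the unadjusted edgeR p-values of mt-Rnr1 and mt-Rnr2 were 0.0913 and 0.0836, and leaving out X17SI4, X23SI4 or X10SI4 likewise took both above 0.05. Without SI9 that of mt-Rnr2 was 0.0508. mt-Tw, the tryptophan tRNA, which lies downstream of mt-Nd2 and overlaps its end, had 2.35, 0.59, 2.52 and 1.43 CPM in normal cys and 0.857, 0.75 and 0.644 CPM in low cys, from 10 to 48 counts. The lowest value of all was the normal cys library X32SI4. Its log2 fold change was -1.18 (standard error 0.508, edgeR adjusted p = 0.794, unadjusted p = 0.0454), and leaving out any library other than X32SI4 or X1SI4 took the unadjusted p above 0.05. In limma-voom the estimate was -0.93 with an unadjusted p of 0.145.

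mt-Tt was not tested in edgeR because of its low counts, which were 8, 6, 8 and 8 in normal cys and 4, 4 and 1 in low cys. In CPM the groups did not overlap (0.273 to 0.421 against 0.0644 to 0.25, exact permutation test, p = 0.0571), at counts where counting error alone is large. Of all genes tested, to which mt-Tt does not belong, 6.83% did not overlap. mt-Td, the aspartate tRNA, had 5.54, 0.227, 23.2 and 4.20 CPM in normal cys and 19.0, 3.81 and 5.22 CPM in low cys, from between 5 and 466 counts. One library of each diet (SI9 and X23SI4) was high, and X32SI4 was low. The standard error of its log2 fold change (0.20) was 1.06.

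None of the 13 mRNAs passed either threshold. Their log2 fold changes ranged from -0.33 (mt-Nd6) to 0.14 (mt-Atp8), with a median of -0.16, and 12 of 13 were below 0. This lean rested on single libraries. Without SI9, 2 of 13 were below 0 and 11 above (median 0.14), and without X23SI4 7 were below and 6 above (median -0.01). mt-Co1, the highest mRNA, had 21268, 25570, 40967 and 26558 CPM in normal cys and 17731, 26900 and 24150 CPM in low cys (log2 fold change -0.32, standard error 0.277, edgeR adjusted p = 0.804, and -0.10 without SI9 or -0.15 without X23SI4). SI9 was the highest and X23SI4 the lowest library. mt-Nd6 had 13.1, 13.2, 20.03 and 7.40 CPM in normal cys and 8.08, 12.1 and 11.9 CPM in low cys, where X1SI4 of normal cys was the lowest (log2 fold change -0.33, standard error 0.311, edgeR adjusted p = 0.817, and -0.08 without SI9, -0.15 without X23SI4 and -0.53 without X1SI4).

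Among the complex I genes, log2 fold changes were -0.22 for mt-Nd5 (standard error 0.321), -0.17 for mt-Nd4 (0.290), -0.16 for mt-Nd4l (0.290), -0.09 for mt-Nd3 (0.382) and -0.01 for mt-Nd2 (0.324). mt-Nd2 had 1412 to 3448 CPM in normal cys and 1553 to 2279 CPM in low cys, and mt-Nd4 had 4363 to 8920 and 3984 to 5781 CPM. For mt-Cytb, the subunit of complex III that carries electrons between its haem groups, the estimate was -0.20 (0.268), with 5495 to 10251 CPM in normal cys and 4800 to 7291 CPM in low cys.

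The complex IV genes mt-Co2 and mt-Co3, whose counts share nearly all stretches with nuclear copies, had log2 fold changes of -0.22 (standard error 0.266) and -0.15 (0.282). mt-Co2 had 7228 to 13623 CPM in normal cys and 6166 to 9181 CPM in low cys. The ATP synthase genes mt-Atp6 and mt-Atp8 had log2 fold changes of -0.12 (0.294) and 0.14 (0.472). mt-Atp8 had 1101, 445, 2377 and 1178 CPM in normal cys and 1029, 1801 and 1392 CPM in low cys, and X32SI4 was the lowest library by far. Without X32SI4 its log2 fold change was -0.13, and without X26SI4 -0.05. In each of these mRNAs SI9 was the highest library, the diets overlapped, and the standard error exceeded the estimate. The other tRNA genes tested, mt-Tm (methionine), mt-Ts1 (serine) and mt-Ti (isoleucine), had log2 fold changes of -0.49 (standard error 0.467), -0.31 (0.608) and -0.13 (0.712), from 2 to 64 counts per library, and overlapped as well.

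Relative to the 12 mRNAs of the plus strand, mt-Nd6 had 0.210, 0.194, 0.167 and 0.106 counts per 1000 in normal cys and 0.152, 0.149 and 0.163 in low cys. The low cys libraries lay inside the normal cys range and were closer to each other (log2 ratio difference -0.08, exact permutation test, p = 0.83). All 9 genes on the minus strand together held 0.0112% to 0.0223% of the mitochondrial counts. The library kit keeps the strand, but the strand setting of the counting is not given in the sources used here. Whether poly(A) selection captured mt-Nd6 as well as the other mRNAs was not tested.

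The make-up of the mRNA pool was also compared, as the share of each gene in the counts of all 13. mt-Co1 held 34.2%, 37.7%, 34.1% and 37.9% in normal cys and 33.3%, 33.1% and 33.1% in low cys. All 3 low cys libraries were below all normal cys libraries, with X17SI4 and SI9 close to them (36.0% ± 2.12 (SD, n = 4) against 33.2% ± 0.116 (SD, n = 3)). The exact permutation test gave p = 0.0857, the smallest of the 13 genes, and 0.495 after Benjamini-Hochberg adjustment over the 13 genes. The share of mt-Cytb, the complex III subunit, was 9.12% ± 1.33 (SD, n = 4) and 9.10% ± 0.192 (SD, n = 3), and the shares of 0 of 13 genes had a p under 0.05. mt-Atp8, a small ATP synthase subunit whose gene overlaps mt-Atp6 by 43 bases, held 0.656% in X32SI4 and 1.68% to 2.22% in the other 6 libraries. Counts of mt-Atp8 were 7.24% of those of mt-Atp6 in X32SI4 and 15.8% to 19.5% in the others.

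**Figure D5:**
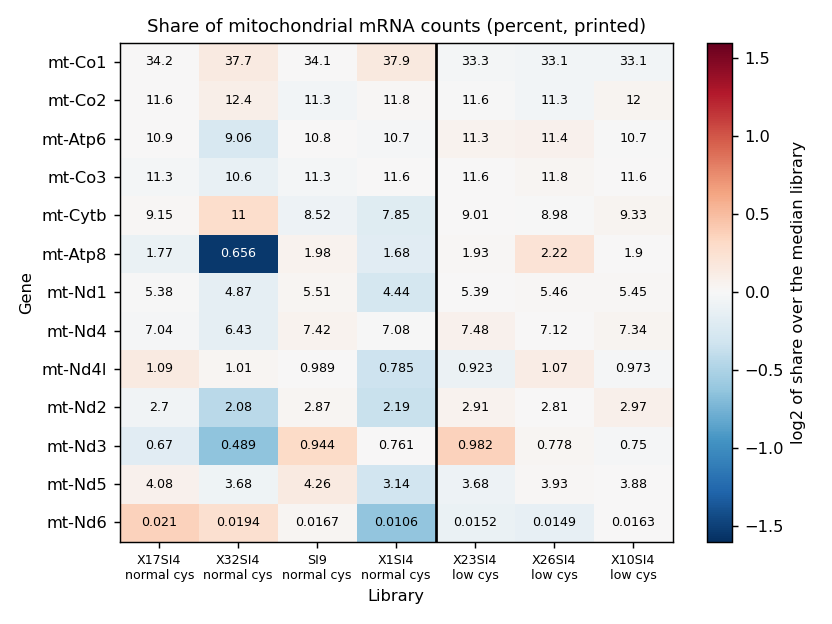
Share of each protein-coding gene in the counts of the 13 mitochondrial mRNAs (percent, printed in each cell) by library, coloured by the log2 of the share over the median library. mt-Co1 is lower in the 3 low cys libraries (33.1% to 33.3%) than in the normal cys libraries (34.1% to 37.9%), and the darkest cell is mt-Atp8 in X32SI4 (0.656%).

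Nuclear genes that maintain, transcribe, process and translate the mitochondrial genome were examined in 4 lists. Among 137 different genes tested, 1 had an unadjusted edgeR p under 0.05, where 5.49% of all genes tested did, and 0 had an adjusted p under 0.05. That gene was Tfb2m, a transcription factor that helps the mitochondrial polymerase to open the promoter, with 17.03, 10.5, 12.7 and 13.5 CPM in normal cys and 20.2, 16.3 and 17.5 CPM in low cys. X17SI4 overlapped with the low cys libraries (log2 fold change 0.42, standard error 0.183, edgeR adjusted p = 0.794, unadjusted p = 0.0466). The unadjusted p of Tfb2m was above 0.05 in 8 of 13 alternatives, among them DESeq2 (unadjusted 0.0612, adjusted p = 0.888). The 1 gene under 0.05 without adjustment in DESeq2 was instead Mgme1, a nuclease for mitochondrial DNA (log2 fold change 0.63, DESeq2 adjusted p = 0.848), named after its value was seen. Without X17SI4, 15 of the 137 genes had an unadjusted p under 0.05 in edgeR, but so did 11.9% of all genes tested. Of the 15, 13 were higher in low cys, where 6.3% of all genes tested were under 0.05 and higher. Leaving out X26SI4 gave 5 (6.3% of all genes tested), and leaving out SI9, X23SI4 or X10SI4 gave 0 (2.73%, 1.71% and 3.44%).

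The list on maintenance of mitochondrial DNA (17 genes, median log2 fold change 0.08) and that on transcription (11 genes, 0.08) held 0 and 1 such gene. Polrmt, the mitochondrial RNA polymerase, had 17.6 ± 2.04 CPM (SD, n = 4) in normal cys and 20.6 ± 2.13 (SD, n = 3) in low cys (log2 fold change 0.23, edgeR adjusted p = 0.794). Tfam, which packs mitochondrial DNA and starts its transcription, had 23.5 ± 2.74 and 27.3 ± 3.58 CPM (log2 fold change 0.21, edgeR adjusted p = 0.794). Of 35 genes for RNA processing and stability, 0 had an unadjusted p under 0.05 and 29 had a log2 fold change above 0 (median 0.13), beside 51.2% of all genes tested. Lrpprc, which stabilizes mitochondrial mRNAs, had 34.4, 28.2, 16.8 and 21.9 CPM in normal cys and 39.4, 29.6 and 31.1 CPM in low cys, and SI9, the library with the highest mitochondrial share, had its lowest level (log2 fold change 0.40, standard error 0.232, edgeR adjusted p = 0.794). Of 76 mitochondrial ribosomal protein genes tested, 0 had an unadjusted p under 0.05 (5.49% of all genes tested) and 58 were above 0 (median 0.08). Whether the counts above 0 in these lists rest on single libraries was not tested.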

How the data were processed

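The authors isolated RNA, prepared stranded poly(A)-selected libraries, sequenced paired reads of 50 bases, trimmed them with Trim Galore, removed rRNA reads with SortMeRNA, aligned the rest to GRCm38 with STAR and counted them on exons with featureCounts. They deposited raw counts per gene without normalization. How reads with several possible origins were counted, and which of the purification kits served which library, are not given in the sources used here.

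Counts were tested across the whole table with the robust quasi-likelihood test of edgeR (version 4.0.16, R 4.3.3) after filterByExpr (minimum count 10, minimum total count 15) and TMM scaling, with Benjamini-Hochberg adjustment over 14869 genes. Expression varied between libraries of a diet by 25.5% (biological coefficient of variation). Groups came from the sample labels, with 4 and 3 libraries, each from 1 mouse per the series' design. For single values a two-sided exact permutation test was used (35 splits, smallest possible p 0.0286). DESeq2 (1.42.0), limma-voom (limma 3.58.1), other scalings and filters, and leaving out each library were alternatives. Sequences and coordinates came from GENCODE M21 transcripts, in which all 37 genes had the coordinates of the table. The members and gene lists were chosen with earlier results of these data known. Values in every library were given for the genes with the smallest p-values, mt-Tl1 and its neighbours, mt-Tc, mt-Nd6, the highest and lowest mRNA, and genes whose groups did not overlap. From the nuclear lists they were given for genes with an unadjusted edgeR p under 0.05 and for Lrpprc, and as mean and SD for Tfam and Polrmt. mt-Td, mt-Atp8 and the copies were added after their values were seen.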

Additional observations from a re-analysis of the deposited data

Results flagged for a closer look

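Among the 4 normal cys libraries, 48 values were examined for a library far from the other 3, and 7 were, where chance gives about 2.4. Each value below is the gap to the nearest other library as a part of the whole range. SI9 was far above the others for 5 mRNAs measured in CPM, which are not independent of each other. These were mt-Nd1 (0.934, 6632 against 3108 to 3342 CPM), mt-Nd5 (0.884, 5128 against 2196 to 2535 CPM), mt-Nd4 (0.87, 8920 against 4363 to 4957 CPM), mt-Nd2 (0.869, 3448 against 1412 to 1678 CPM) and mt-Co3 (0.83, 13587 against 7037 to 8149 CPM). X32SI4 was far below the others in the share of mt-Atp6 in the mRNA counts (0.871, 9.06% against 10.7% to 10.9%) and in the log2 ratio of mt-Atp8 to mt-Atp6 (0.842, -3.79 against -2.66 to -2.45).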

How the results depend on the processing

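The count of mitochondrial genes with an unadjusted p under 0.05 in edgeR, 4 in all libraries, was between 1 and 4 when each library was left out. It was 1 without X17SI4 (11.9% of all genes tested), X23SI4 (1.71%) or X10SI4 (3.44%). It was 2 without SI9 (2.73%) or X1SI4 (5.65%), 3 without X26SI4 (6.3%) and 4 without X32SI4 (6.17%). The count with an adjusted p under 0.05 was 1 with DESeq2 (0.0928% of the genes with an adjusted p). mt-Tl1 kept an unadjusted p under 0.05 in all 13 alternatives, and mt-Tw lost it in 6, among them limma-voom. Of the nuclear genes, 2 passed with limma-voom (6.29% of all genes tested), 0 with DESeq2's size factors in edgeR (5.47%) and 0 without a filter (4.88%). Without 1 library, between 0 and 15 passed (1.71% to 11.9% of all genes tested). The difference in share (percentage points, low minus normal) ranged without 1 library from -0.87 to 0.71 for all mitochondrial genes, from -0.833 to 0.764 for mRNAs and from -0.000777 to 0.000419 for tRNAs. The mt-Tl1 to mt-Nd1 log2 ratio differed by -1.37 to -1.08, where the smallest p the remaining splits allow is 0.1 or 0.0667, and that of mt-Nd6 to the other mRNAs by -0.29 to 0.04 (0.0371 without X17SI4). Log2 fold changes without 1 library ranged from -0.23 to 0.21 for mt-Nd1, from -0.13 to 0.63 for mt-Atp8 and from -0.86 to 1.51 for mt-Td. The cause of these shifts was not tested. The make-up of the mRNA pool was not retested without single libraries, since those splits cannot give a p under 0.05. No paired analysis was possible because the labels do not pair mice between the diets. With 3 and 4 mice and tRNA genes of few counts, only large differences can be detected.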
